A study of Arabidopsis thaliana with 6 samples.

Results

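*FT*, *FD*, *FUL*, *FLC*, *SNZ*, *CDF1* and *GI* are 7 genes that set or read out the time of flowering in *Arabidopsis*. They were taken by their locus numbers from the annotation of the array or from S1 Table of the study, which gave 1 probe set for each gene and placed them among 14137 genes with a name here. Their signals were compared in *gis5* and WT seedlings. The *gis5* plants carry an ethyl methanesulfonate-induced point mutation in *POLD1*, which codes for the catalytic part of DNA polymerase δ. The mutation was found in a screen for suppressors of the late flowering of *gi-2*, a mutant of *GI*, and was then studied in the WT background after repeated backcrosses, so that *gis5* is a single allele with a wild-type *GI*. WT was the accession Columbia, and all lines of the study are in this background. Each genotype gave 3 biological replicates of 10-d-old whole seedlings, leaves and roots together, kept in continuous light, which leaves out daily changes of light. The growth temperature was 23°C in the description of the series, and the methods of the study give a slightly higher one. Each of the 6 RNA samples was hybridised to its own Affymetrix ATH1 array.

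Day length and the circadian clock act on flowering through GI, a clock-controlled protein that works with a blue-light receptor to remove CDF proteins, which are DOF-type repressors of *CONSTANS* and *FT*. FT is a small protein made in the phloem of leaves that travels to the shoot apex, where it acts with the bZIP factor FD on MADS-box genes such as *FUL*. FLC, a MADS-box protein whose gene is silenced by long cold, and SNZ, an AP2-like protein whose mRNA is a target of the microRNA miR172, both hold flowering back. In whole seedlings, fewer cells of a type and less RNA per cell cannot be told apart.

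The deposited values are linear signals of the MAS5 algorithm, which the authors had scaled to a 2% trimmed mean of 500 on each array, and array medians lay between 185 and 191 in *gis5* and between 174 and 182 in WT. Differences are given as log2 ratios, *gis5* minus WT, of log2(signal + 16), with a 95% interval and with p-values from limma adjusted over all 22746 probe sets. The constant of 16 damps the noise of dim probe sets and makes their ratios smaller than those of the raw signals. As a measure of RNA quality, the actin control probe sets gave a 3′ to 5′ ratio that was between 4.39 and 4.99 on the *gis5* arrays and was 3.30, 5.29 and 6.42 on WT arrays 1, 2 and 3. The same ratio of the GAPDH control was 0.90, 1.15 and 1.18 on *gis5* arrays 1, 2 and 3 and 0.79, 1.11 and 1.17 on WT arrays 1, 2 and 3. Of 5 leaf markers and 6 root markers fixed for the check of the tissue, 1 and 2 had a named probe set. The leaf gene *RCA* had signals between 34517 and 38346 in *gis5* and between 39850 and 43821 in WT, lower on every *gis5* array (log2 ratio −0.23, adjusted p = 0.68). The root gene *PYK10* had 22775, 19247 and 20819 in *gis5*, against 14994, 21697 and 22159 in WT, which overlap (log2 ratio 0.11, adjusted p = 0.90). The root gene *EXPA7* had 154, 202 and 164 in *gis5*, against 175, 60.0 and 71.9 in WT (log2 ratio 0.79, adjusted p = 0.57), and as for *FD* and *FUL* its highest WT signal was on replicate 1. The part of these tissues in the values of the 7 genes was not tested.

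The activators *FT*, *FD* and *FUL* had positive log2 ratios and the 3 repressors had negative ones. *GI*, which also promotes flowering, had nearly equal signals in both genotypes. Among the other measured flowering genes, role and sign did not go together. Of promoters, *AGL24* had a positive log2 ratio (0.56), and *NF-YB2* (−0.45) and *PIF4* (−0.42) had negative ones. Of repressors and their relatives, *AP2* (0.32) and *TEM1* (0.29) were positive, and *SMZ* (−0.16), *CDF2* (−0.35) and *CDF5* (−0.12) negative. None of the 7 passed an adjusted p of 0.05, a threshold that 0.00440% of all probe sets met. At an unadjusted p under 0.05 there were 3 genes with a higher signal in *gis5*, *FT*, *FD* and *FUL*, where 5.99% of all probe sets were higher. At the same p there were 2 with a lower signal in *gis5*, *CDF1* and *SNZ*, where 3.06% of all probe sets were lower. The methods of the study ask for an unadjusted p under 0.05 with a log2 ratio of 1 or more, or of −1 or less. The study applied these thresholds to values from another algorithm, RMA. On the MAS5 signals used here the thresholds were met by *FT*, *FD* and *FUL*, all higher in *gis5*. They were met by 1.38% of all probe sets in that direction, and these calls are not those of the study. The lowest *gis5* array exceeded the highest WT array for *FT* alone, as for 9.13% of all probe sets, and the highest *gis5* array was below the lowest WT array for *SNZ* and *CDF1*, as for 6.79%. The other 4 genes overlapped between the genotypes. *FT*, *FUL*, *FLC* and *CDF1* owe their name here to the leading rows of S1 Table, which are sorted by difference. All 7 genes were also chosen with earlier results of these data known. The counts and the signs are therefore not independent of the choice of genes.

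**Figure D1:**
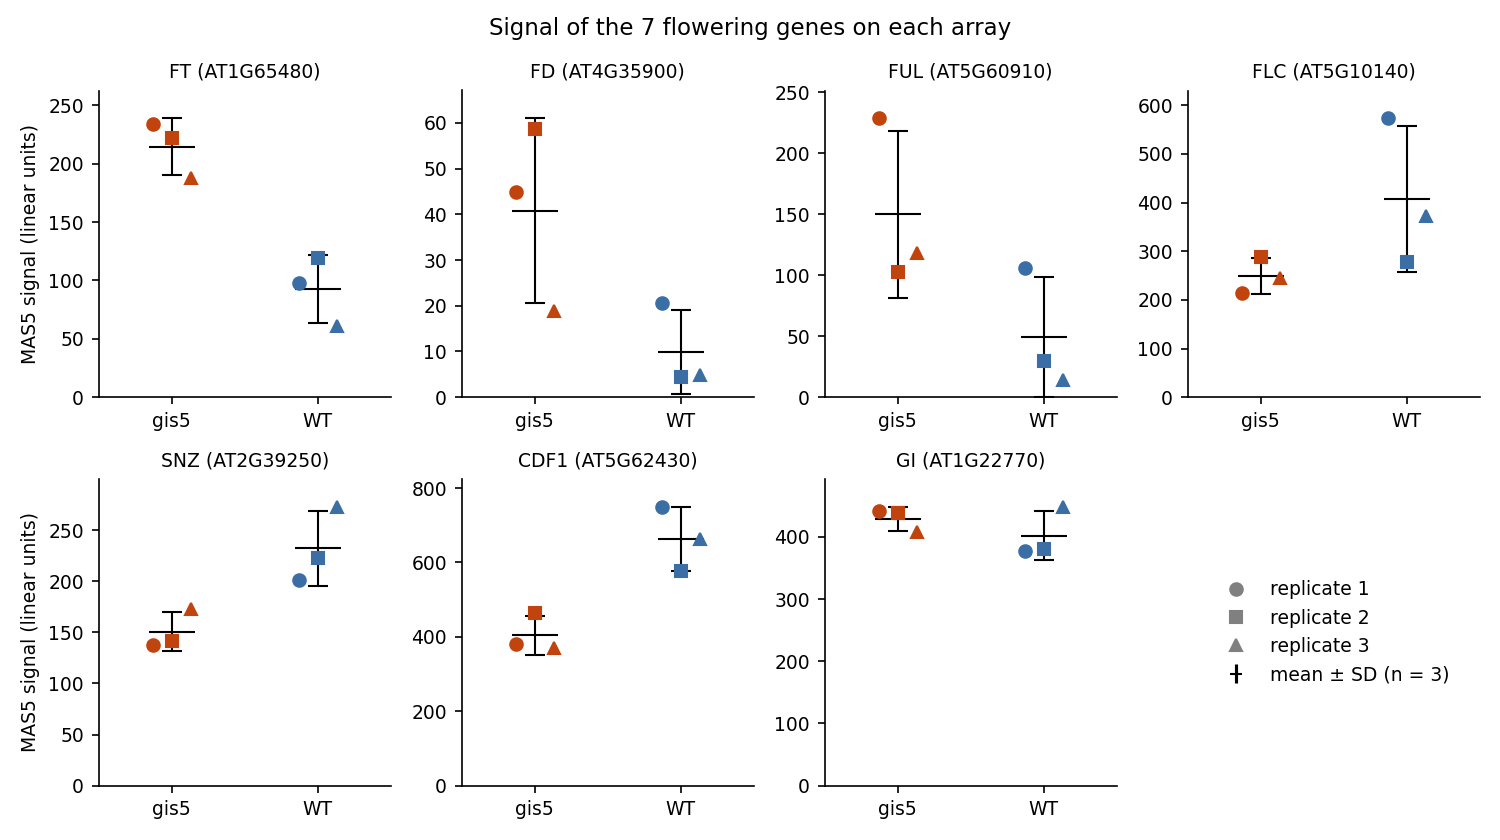
Linear MAS5 signal of each gene (vertical axes, each with its own scale from 0) on the 3 *gis5* arrays (left, orange) and the 3 WT arrays (right, blue), with the replicate number as the shape of the point and the mean ± SD (n = 3) in black. The genotypes are apart for *FT*, *SNZ* and *CDF1* and overlap for *FD*, *FUL*, *FLC* and *GI*.

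*FT* (AT1G65480) had signals of 234, 222 and 188 on *gis5* arrays 1, 2 and 3, against 97.8, 119 and 61.1 on WT arrays 1, 2 and 3. The *gis5* arrays were close to each other, with a coefficient of variation of 11.3%, and the WT arrays were more spread, at 31.7%. The lowest WT signal was on replicate 3, the array with the highest actin ratio. Among *gis5* arrays the lowest signal was on replicate 3, which had the lowest actin ratio of that genotype (4.39). The mean signals, 215 ± 24.2 in *gis5* and 92.7 ± 29.4 in WT (SD, n = 3 each), had a ratio of 2.32. On the log2 scale the difference was 1.12 (95% interval 0.55 to 1.69, adjusted p = 0.24), which ranked at 247 among the increases and, by its p, at 232 of all probe sets. An exact permutation test of 3 arrays against 3 gives a two-sided p of 0.1 for this complete separation, the smallest it can give. With a variance that follows brightness and resists outliers, the adjusted p of *FT* was 0.0457, the single call among the 7 genes under any alternative, and over its 13 alternatives this p lay between 0.0457 and 0.45.

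*FD* (AT4G35900), the partner of FT at the apex, was read from the dimmest probe set of the 7. Its signals were 44.8, 58.6 and 18.8 in *gis5*, against 20.5, 4.49 and 4.83 in WT. WT replicates 2 and 3 were near the bottom of the scale, where 9.94% and 8.58% of the probe sets on the array were dimmer still, and *gis5* replicate 3 was below WT replicate 1. The log2 ratio of 1.11 (95% interval 0.27 to 1.96, adjusted p = 0.45) stood against a ratio of mean signals of 4.10, and it was 2.10 with a constant of 1 and 0.49 with a constant of 64. The size of the difference thus rested on the constant, and its sign did not.

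*FUL* (AT5G60910), a MADS-box gene of the inflorescence meristem and the fruit, had the highest log2 ratio of the 7 and the widest interval. Its signals were 229, 102 and 118 in *gis5*, against 106, 29.4 and 13.7 in WT. The WT arrays spanned 7.70-fold and the *gis5* arrays 2.23-fold, and WT replicate 1 was above *gis5* replicate 2. The log2 ratio was 1.52 (95% interval 0.23 to 2.82, adjusted p = 0.48), at rank 63 among the increases, and it was 0.95 with a constant of 64. The SD within genotypes was 0.84 on the log2 scale, where the 1001 probe sets nearest in brightness had a median of 0.32. In WT, the array with the highest *FUL* signal was the one with the lowest actin ratio (3.30) and the array with the lowest *FUL* signal the one with the highest (6.42). In *gis5* the lowest *FUL* signal was also on the array with the highest ratio (4.99), and the highest signal on the array with the middle one (4.54). The part of RNA quality in this spread was not tested.

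*FLC* (AT5G10140), the repressor that is silenced by vernalization, had signals of 214, 288 and 245 in *gis5*, against 573, 278 and 372 in WT. Replicates 1 and 3 of *gis5* were below every WT array, *gis5* replicate 2 was just above WT replicate 2, and WT replicate 1 was the highest of all. The log2 ratio was −0.63 (95% interval −1.29 to 0.03, adjusted p = 0.57), so that the interval reached past a 2-fold decrease at one end and past 0 at the other. Without WT replicate 1 the log2 ratio was −0.36. The unadjusted p of 0.0596 from limma missed 0.05, and with quantile normalization or with the arrays centred on their medians it was 0.0470 and 0.0383, within a range of 0.0127 to 0.16 over its 14 alternatives.

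*SNZ* (AT2G39250), the AP2-like repressor, had signals of 138, 141 and 173 in *gis5*, against 201, 223 and 273 in WT. The highest *gis5* array was below the lowest WT array, and the coefficients of variation were 12.9% in *gis5* and 15.8% in WT. The log2 ratio was −0.57 (95% interval −0.995 to −0.14, adjusted p = 0.44). In WT the 3 signals had the same order as the actin ratios of their arrays (3.30, 5.29 and 6.42). In *gis5* they did not, and the highest signal was on replicate 3, the array with the lowest ratio (4.54, 4.99 and 4.39). The part of RNA quality was not tested. The interval of the log2 ratio lies above a 2-fold decrease, if only just, and below 0.

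*CDF1* (AT5G62430), the DOF repressor of *CONSTANS* and *FT*, had signals of 379, 464 and 369 in *gis5*, against 749, 576 and 664 in WT. The genotypes did not overlap, and the spread was alike in both, with coefficients of variation of 12.9% in *gis5* and 13.05% in WT. The log2 ratio was −0.69 (95% interval −1.11 to −0.27, adjusted p = 0.32), at rank 569 among the decreases and, by its p, at rank 426 of all probe sets. It was between −0.79 and −0.60 when any 1 array was left out, and its unadjusted p was under 0.05 in all 14 alternatives. *CDF1* was the brightest of the 7 probe sets, with 73.8% of all probe sets dimmer, and its SD within genotypes (0.18 on the log2 scale) was close to the median of probe sets of like brightness (0.19).

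*GI* (AT1G22770), the gene whose mutant was used in the screen, had signals of 442, 438 and 407 in *gis5*, against 378, 380 and 448 in WT. The highest and the lowest value were both from WT, on replicates 3 and 1, so that the genotypes overlapped. The log2 ratio was 0.09 (95% interval −0.26 to 0.45, adjusted p = 0.88), an interval that leaves out a 2-fold difference in either direction. *GI* had the smallest spread of the 7 on the log2 scale, an SD within genotypes of 0.10 against a median of 0.20 for probe sets of like brightness.

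**Figure D2:**
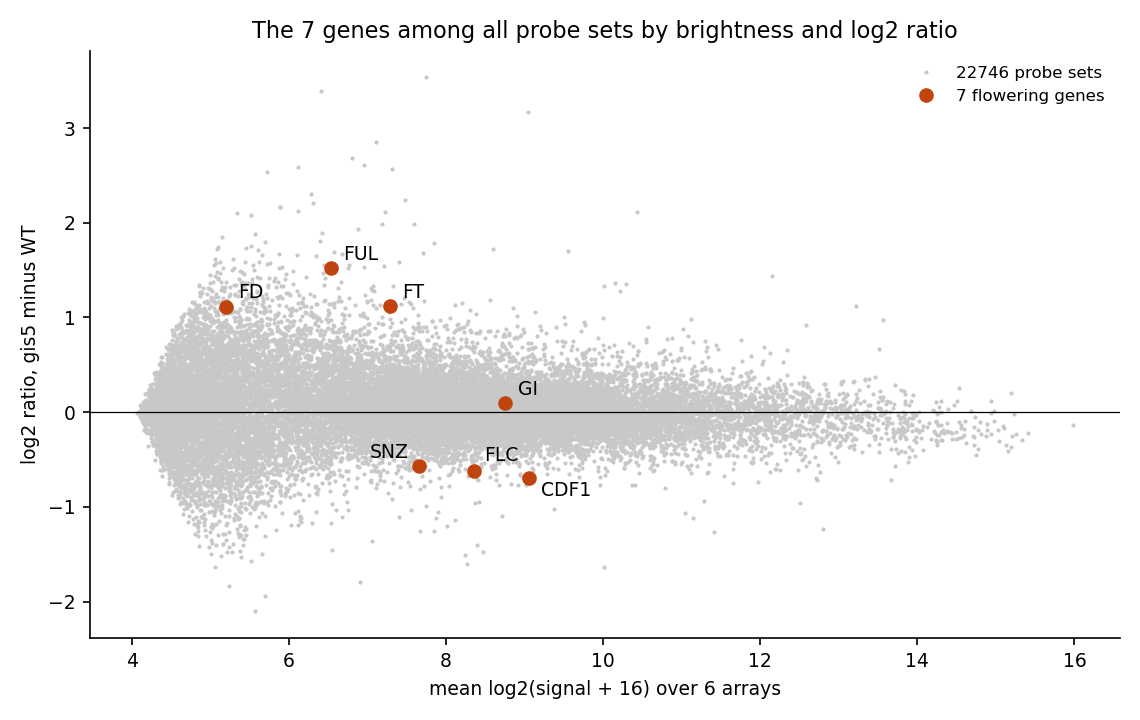
Log2 ratio (*gis5* minus WT, vertical axis) against mean log2(signal + 16) over the 6 arrays (horizontal axis) for all 22746 probe sets in grey, with the 7 flowering genes in orange. *FD* lies among dim probe sets whose ratios scatter widely, *FT* and *FUL* lie toward the upper edge of the cloud, *SNZ*, *FLC* and *CDF1* toward its lower edge, and *GI* within it.

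Across the 6 arrays each activator correlated negatively with each repressor, over a wide range of strength. The correlation of log2 signals was 0.81 between *FT* and *FD*, 0.82 between *FT* and *FUL*, −0.96 between *FT* and *SNZ* and −0.86 between *FT* and *CDF1*, and 0.89 between *FLC* and *CDF1*. It was weaker between *FD* and *CDF1* (−0.54), *FUL* and *FLC* (−0.31) and *FD* and *FLC* (−0.28). *GI* correlated with none of the others beyond 0.42 in size. These values are a description over 6 arrays that share the split between the genotypes, which adds to the size of the correlation of 2 genes that differ between *gis5* and WT. Within WT, replicate 3 had the lowest signals of *FT* and *FUL* and the highest of *SNZ*, while replicate 1 had the highest signals of *FLC* and *CDF1* and also of the activators *FD* and *FUL*.

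Among 8201 other named probe sets with a mean signal of at least 100, the one whose log2 signals followed *FT* most closely over the 6 arrays was that of *APG8H* (AT3G15580), an autophagy gene of the ATG8 family (r = 0.995). Its signals were 2984, 2952 and 2888 in *gis5*, against 2396, 2584 and 2172 in WT, a log2 ratio of 0.30, much smaller than that of *FT*. The next were AT5G53880 and AT3G48490 (both r = 0.99), AT3G54120 (r = 0.99), with a log2 ratio of 0.94, and the transcriptional coactivator gene *MBF1C* (AT3G24500, r = 0.99), with 0.73. For *FLC* the closest were AT4G35940 (r = 0.99), AT1G67050 (r = 0.98), AT1G70900 (r = 0.98), AT1G58150 (r = 0.98) and AT4G29960 (r = 0.97). All 5 shared with *FLC* a highest signal on WT replicate 1, such as 376 for AT1G67050, where the other WT arrays read 207 and 278 and the *gis5* arrays between 146 and 216. No flowering gene of the lists was among these 10. The ranking could not hold *FD* or *FUL*, whose mean signals were below 100, nor genes without a name. It also could not hold genes with a negative correlation, such as *SNZ* with *FT*, so this absence says little of the flowering genes. The r values given are the highest among 8201, over only 6 arrays that share the split between the genotypes. Taking the highest of so many favours values near 1, and shared regulation was not tested.

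Beside the 7 genes, 74 other genes of the flowering pathways were listed, of which 12 had a named probe set and 62 were not analysed here, among them all 9 clock genes and all 5 genes of the age pathway. Of the 12, 6 had a positive and 6 a negative log2 ratio, with a median of 0.01 against 0.03 over all probe sets. None passed an adjusted p of 0.05, 2 had a higher signal in *gis5* at an unadjusted p under 0.05 and 1 a lower one, where 5.99% of all probe sets were higher and 3.06% lower. The genotypes did not overlap for 3 of the 12, with *gis5* above WT for 2 and below WT for 1, as for 9.13% and 6.79% of all probe sets. Of the 12, 6 were named only through the sorted rows of S1 Table, so these counts are not independent of the differences.

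In the family of *FT*, *ATC* (AT2G27550), a relative of the floral repressor gene *TFL1*, had signals of 458, 371 and 382 in *gis5*, against 382, 190 and 196 in WT. Its log2 ratio was 0.69 (95% interval 0.02 to 1.36, adjusted p = 0.54), and WT replicate 1 was the highest WT array and lay within the *gis5* range. *MFT* (AT1G18100), a relative known for its role in seed germination, had a log2 ratio of 0.40 with an interval from −0.75 to 1.55. Beside *FUL*, the MADS-box gene *AGL24* (AT4G24540), a promoter of flowering, had signals of 102, 121 and 103 in *gis5*, against 88.8, 59.0 and 60.9 in WT, which do not overlap. Its log2 ratio was 0.56 (95% interval 0.11 to 1.00, adjusted p = 0.46).

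The repressors related to *SNZ* had no common sign. *SMZ* (AT3G54990), an AP2-like repressor that acts with *SNZ*, had a log2 ratio of −0.16 (95% interval −0.59 to 0.26). *AP2* (AT4G36920), a gene of floral identity and of the same family, had signals of 276, 305 and 307 in *gis5*, against 209, 251 and 245 in WT, which gives a log2 ratio of 0.32 (95% interval −0.04 to 0.68, adjusted p = 0.60) with no overlap. *TEM1* (AT1G25560), a RAV-type repressor of *FT*, had 1124, 752 and 559 in *gis5*, against 614, 647 and 643 in WT. Here the *gis5* arrays lay on both sides of the WT arrays, and the log2 ratio was 0.29 (95% interval −0.33 to 0.91).

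The relatives of *CDF1*, which overlap with it in function, had negative log2 ratios with wide intervals. *CDF2* (AT5G39660) had −0.35 (95% interval −1.07 to 0.38), with *gis5* signals of 215, 338 and 139, against 257, 319 and 268 in WT. *CDF5* (AT1G69570) had −0.12 (95% interval −0.98 to 0.75). Neither interval leaves out the log2 ratio of *CDF1*, and whether the 3 genes differ from each other was not tested.

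Of the genes that act on *FT* or *FLC* from other inputs, *NF-YB2* (AT5G47640), a subunit of the CCAAT-binding complex that works with CONSTANS on *FT*, had signals of 1137, 1106 and 1030 in *gis5*, against 1736, 1337 and 1446 in WT. The genotypes did not overlap, and the log2 ratio was −0.45 (95% interval −0.84 to −0.07, adjusted p = 0.48). *PIF4* (AT2G43010), a bHLH factor that activates *FT* in warmth, had a log2 ratio of −0.42 (95% interval −0.94 to 0.11). Of the autonomous pathway, which lowers *FLC*, 2 genes were measured, and *FY* (AT5G13480) had a log2 ratio of 0.07 (95% interval −0.52 to 0.67) and *LD* (AT4G02560) one of −0.06 (95% interval −0.43 to 0.30).

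**Figure D3:**
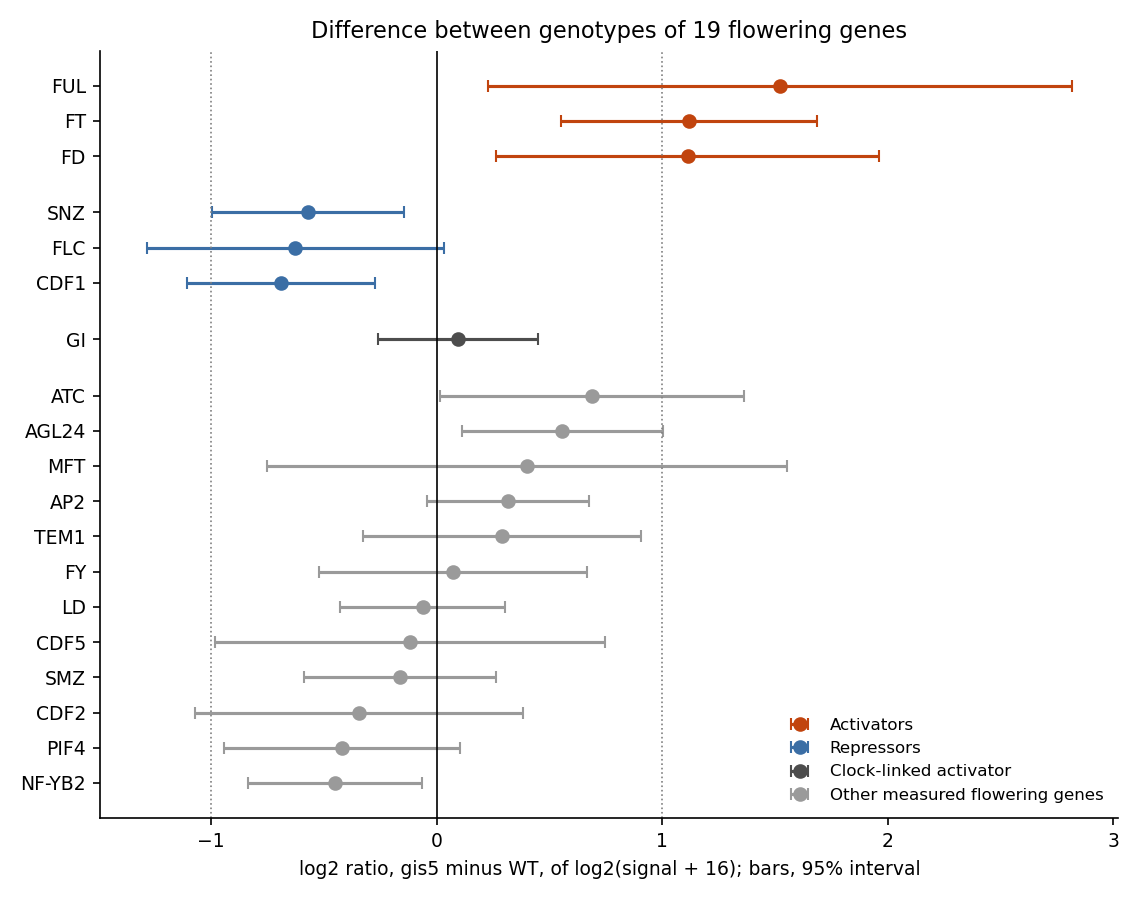
Log2 ratio (*gis5* minus WT, horizontal axis) of 19 measured flowering genes, with bars for the 95% interval from limma and dotted lines at a 2-fold difference. The activators *FUL*, *FT* and *FD* (orange) lie above 1, and the repressors *SNZ*, *FLC* and *CDF1* (blue) between −0.69 and −0.57. *GI* (dark grey), also an activator, lies near 0, and the other 12 genes (light grey) between −0.45 and 0.69.

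Of 6 markers of floral organs 5 had a named probe set, all of them named through the sorted S1 Table, and their summed signal lay between 1100 and 1562 in *gis5* and between 176 and 239 in WT, with none at 0. The lowest *gis5* value and the highest WT value of *SEP3* (AT1G24260) among them were 534 and 59.0, and it was the 1 floral marker to pass an adjusted p of 0.05 (log2 ratio 3.53, adjusted p = 0.0476 from limma). *SEP3* was the largest part of the sum on each *gis5* array, with signals of 534 to 909. The study describes the expression of *SEP3* in *gis5* as ectopic, so the sum cannot be read as an amount of floral organs. The 5 markers were not alike. *SEP1* and *SEP2* had log2 ratios of 3.39 and 2.53 (adjusted p = 0.057 and 0.085). *AG* had 0.91 (adjusted p = 0.36), and *PI*, which overlapped between the genotypes, had 0.58 (adjusted p = 0.72). Of 6 seed markers 2 were measured, *CRA1* and *CRU3*, named in the same way, and their sum lay between 68.6 and 895 in *gis5*, where replicate 1 was the lowest, and between 15.4 and 65.0 in WT. *CLV3* (AT2G27250), the single measured marker of 8 for the shoot apex, where *FD* and *FUL* act, read 3.63, 16.7 and 5.58 in *gis5*, against 5.03, 1.73 and 1.56 in WT, near the bottom of the scale. None of the 5 phloem markers had a named probe set, so that the tissue of *FT* had no marker here. The part of tissue composition in the values of the 7 genes was not tested.

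The sign of the log2 ratio of each of the 7 genes was the same in every one of the 95 values that the alternatives gave. Counts of calls moved more. Without WT replicate 3 the log2 ratio of *FT* was 0.89, and none of the 7 genes met the thresholds of the methods, while 2 had an unadjusted p under 0.05. Without WT replicate 2, or without *gis5* replicate 1, 1 met the thresholds of the methods, and without *gis5* replicate 1 or *gis5* replicate 2, 3 had an unadjusted p under 0.05.

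**Figure D4:**
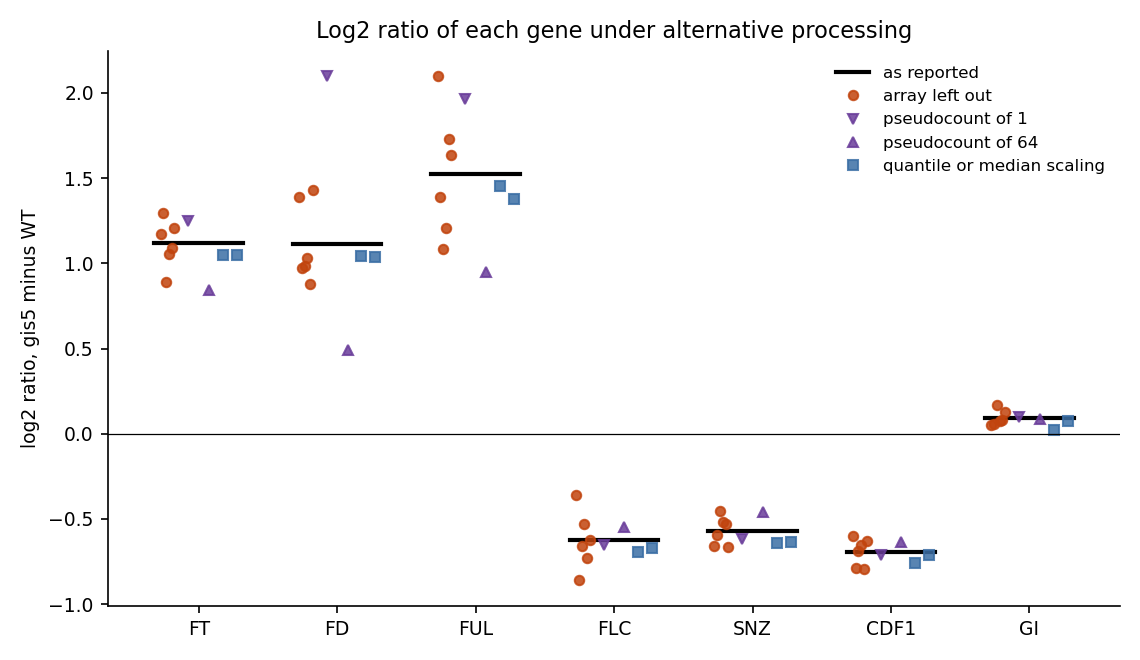
Log2 ratio (*gis5* minus WT, vertical axis) of each gene as reported (black line), with each array left out in turn (orange circles), with a constant of 1 or 64 in place of 16 (purple triangles) and with quantile normalization or median centring (blue squares). *FD* ranges between 0.49 and 2.10, *FUL* between 0.95 and 2.10, and *CDF1* between −0.79 and −0.60, and no gene crosses 0.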

How the data were processed

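The deposited table holds the authors' linear MAS5 signal intensity of each probe set on each array, and a MAS5 version is not given in the sources used here. The gene list of the paper came from RMA, which was not used here, and the columns of S1 Table that hold means, differences and p-values were not used. Names came from the annotation of the platform joined to the RefSeq genes of assembly TAIR10.1. Of the 7 genes, *FD*, *SNZ* and *GI* were named in this way. *FT*, *FUL*, *FLC* and *CDF1* were named only through the first 1996 rows of S1 Table, a list sorted by difference. Their presence here is therefore not independent of their difference, and the same holds for 6 of the 12 other flowering genes.

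After removal of 64 control probe sets, log2(signal + 16) of 22746 probe sets was fitted in limma 3.58.1 (R 4.3.3, functions lmFit and eBayes) by genotype alone, and p-values were adjusted by Benjamini-Hochberg. No scaling was added, since the medians of the arrays ranged over 9.53%, below the limit of 10% for doing so. Each array correlated with each other array at 0.958 to 0.974. Replicate numbers did not pair the arrays (correlations of deviations between −0.06 and −0.00028). The fit was tested on simulated data, with changes placed only in probe sets above the median signal. That test does not cover probe sets as dim as those of *FT*, *FD* and *FUL*. The genes, the lists and the rule for named genes (all 7, the other flowering genes with a probe set, and the 5 probe sets most like *FT* and *FLC*) were chosen with earlier results of these data known.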

Additional observations from a re-analysis of the deposited data

How the results depend on the processing

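Alternatives were quantile normalization, median centring, the replicate number as a block, each array left out, the brighter 11373 probe sets alone, other variance models and constants of 1 and 64. The adjusted p of *FT* was 0.0457 with a trended and robust variance (log2 ratio 1.12), 1 of the 7 genes called in place of 0. Genes at the thresholds of the methods numbered 3 as reported, 1 without variance moderation, 0 with a constant of 64, 0 above the median signal, which leaves out *FT*, *FD* and *FUL*, and between 0 and 3 with an array left out. Genes at an unadjusted p under 0.05 numbered 5 as reported, 3 without moderation, 3 above the median signal, between 2 and 5 with an array left out, and 6 with quantile normalization, median centring, a constant of 64 or a trended and robust variance. Of the 19 flowering genes 8 did so as reported, between 3 and 7 with an array left out and 9 with a constant of 64.

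Probe sets with an adjusted p under 0.05 numbered 1 as reported, 3 without moderation, 109 above the median signal, 0 and 43 with constants of 1 and 64, 145 with a trended and robust variance, and 0 with any 1 array left out. Those at the thresholds of the methods numbered 437 as reported, 48 above the median signal, 757 and 58 with constants of 1 and 64, and between 527 and 683 with an array left out. With the replicate block 0 probe sets passed an adjusted p of 0.05, and *FT* had an adjusted p of 0.45, *FUL* 0.45 and *CDF1* 0.62, so that no call of the 7 genes changed. The number of arrays, 3 a genotype, limits the precision.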
